A study of Mus musculus with 9 samples.

Results

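The 28050 consensus open chromatin regions on mouse chromosomes 1, 5, 6 and 11 were described here, out of 80827 regions on the autosomes and X. They make up 34.7% of the set, with 7359 regions on chromosome 1, 7169 on chromosome 5, 5831 on chromosome 6 and 7691 on chromosome 11. They were chosen from the measurements themselves: the 4 chromosomes held many regions per Mb, and their weak regions stood high in the libraries with low contrast between strong and weak regions. These 2 properties are therefore given as a description and without a test. Chromatin accessibility was measured by ATAC-seq, which marks open DNA by transposase insertion, in alphaTC1 cells, an established line of mouse pancreatic alpha cells. Cells carried an shRNA against Smndc1, an shRNA against Atrx, or an empty vector, for 5 days after transduction, with 3 libraries in each group. The libraries are labelled as biological replicates, and all 9 come from 1 line, so the line's own chromosomes are shared by every group. Only 1 shRNA label is given for each targeted gene. The shRNAs act on RNA, so accessibility at the targeted genes is no check of the knockdowns.

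Smndc1 encodes a splicing factor with a Tudor domain, a fold that binds methylated arginine, and Atrx encodes a chromatin remodeler known for its role in heterochromatin. Open regions lie mostly at promoters and at enhancers. A reading of an open region in a cell line depends both on how many copies of the DNA are present and on how open each copy is, and cultured lines commonly gain or lose chromosomes or parts of them. DNA copy number was not measured here, so more copies and more open chromatin per copy cannot be told apart in any of the levels below.

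Library totals over all regions ran from 5.29 to 8.15 M counts. Replicate 3 of each group had the lowest contrast: the strongest 10% of regions held 38.6% of counts in replicate 3 of Smndc1 shRNA, 38.6% in replicate 3 of Atrx shRNA and 38.8% in replicate 3 of empty vector, and 43.3% to 48.8% in the other 6 libraries. Regions at the alpha cell genes Gcg, Irx2 and Pcsk2 reached 31.4, 60.9 and 65.8 CPM (counts per 1 M counts of the library, scaled with TMM factors, mean of the 9 libraries). No region was assigned to the alpha cell marker Gc, to the beta cell gene Ins1 or to the acinar genes Ptf1a and Amy2a5. The strongest region at the immune marker Ptprc had 2.87 CPM and at the endothelial marker Kdr 2.81 CPM. On chromosome 11, however, the other-lineage genes Cd68, Col1a1, Sox9 and Pecam1 had regions at 60.0, 60.0, 56.5 and 44.4 CPM.

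The promoters below lie at the strongest region of each chromosome or at some of the called gene ends. Called regions in gene bodies or between genes, such as the one inside Dbnl, are not printed. The promoters are given as the 250 bases before the annotated start on the gene's own strand (RefSeq, GRCm38.p6, the build of the regions). The first 4 belong to the strongest region of each chromosome: Tsga10 on chromosome 1, named for its expression in testis, Tacc3 on chromosome 5, a mitotic spindle protein, Cdca3 on chromosome 6, a cell cycle protein, and Ubtf on chromosome 11, a factor for ribosomal DNA transcription. The next 3 lie in or beside regions called with Smndc1 shRNA (Akap3, Cntn2 and Uba3), and the last overlaps a region called with Atrx shRNA (Mxd1). Capitals mark the CCAAT box (CCAAT, or ATTGG on the other strand) and the GC box (GGGCGG, or CCGCCC on the other strand); overlapping GC boxes are merged.
Tsga10 promoter, chr1:37865083-37865332, minus strand: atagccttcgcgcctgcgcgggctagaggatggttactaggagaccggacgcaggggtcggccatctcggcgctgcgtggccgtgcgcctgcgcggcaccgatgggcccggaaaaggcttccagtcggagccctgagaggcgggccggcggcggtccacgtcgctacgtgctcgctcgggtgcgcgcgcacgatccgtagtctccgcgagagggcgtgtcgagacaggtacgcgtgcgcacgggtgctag
Tacc3 promoter, chr5:33657878-33658127, plus strand: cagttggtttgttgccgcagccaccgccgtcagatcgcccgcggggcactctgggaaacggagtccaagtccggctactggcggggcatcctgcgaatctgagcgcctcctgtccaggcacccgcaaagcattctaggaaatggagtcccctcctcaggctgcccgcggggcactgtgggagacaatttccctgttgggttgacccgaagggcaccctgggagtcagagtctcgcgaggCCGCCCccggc
Cdca3 promoter, chr6:124829926-124830175, plus strand: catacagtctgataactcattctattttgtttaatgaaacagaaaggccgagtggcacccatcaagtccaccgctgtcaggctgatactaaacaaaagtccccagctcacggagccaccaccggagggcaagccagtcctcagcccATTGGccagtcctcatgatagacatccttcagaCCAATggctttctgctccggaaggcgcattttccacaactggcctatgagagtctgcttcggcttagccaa
Ubtf promoter, chr11:102317872-102318121, minus strand: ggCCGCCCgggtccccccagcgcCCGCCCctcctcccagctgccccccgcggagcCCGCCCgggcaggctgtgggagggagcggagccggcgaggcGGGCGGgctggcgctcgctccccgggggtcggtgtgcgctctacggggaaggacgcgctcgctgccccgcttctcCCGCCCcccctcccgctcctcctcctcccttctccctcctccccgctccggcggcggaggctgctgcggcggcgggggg
Akap3 promoter, chr6:126852848-126853097, plus strand: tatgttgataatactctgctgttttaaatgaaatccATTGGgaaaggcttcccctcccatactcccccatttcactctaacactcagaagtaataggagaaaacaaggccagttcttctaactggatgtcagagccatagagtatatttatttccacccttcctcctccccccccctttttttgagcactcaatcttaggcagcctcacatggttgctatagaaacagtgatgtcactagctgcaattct
Cntn2 promoter, chr1:132542941-132543190, minus strand: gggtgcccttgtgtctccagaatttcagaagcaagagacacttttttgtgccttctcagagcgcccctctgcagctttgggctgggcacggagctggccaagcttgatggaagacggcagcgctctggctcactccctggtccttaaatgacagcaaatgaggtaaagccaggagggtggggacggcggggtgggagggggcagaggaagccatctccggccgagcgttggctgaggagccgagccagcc
Uba3 promoter, chr6:97205648-97205897, minus strand: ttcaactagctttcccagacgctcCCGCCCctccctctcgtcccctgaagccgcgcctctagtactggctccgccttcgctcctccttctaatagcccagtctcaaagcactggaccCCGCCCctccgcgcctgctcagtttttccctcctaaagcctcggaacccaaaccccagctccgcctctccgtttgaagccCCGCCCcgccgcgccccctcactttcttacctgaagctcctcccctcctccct
Mxd1 promoter, chr6:86669160-86669409, minus strand: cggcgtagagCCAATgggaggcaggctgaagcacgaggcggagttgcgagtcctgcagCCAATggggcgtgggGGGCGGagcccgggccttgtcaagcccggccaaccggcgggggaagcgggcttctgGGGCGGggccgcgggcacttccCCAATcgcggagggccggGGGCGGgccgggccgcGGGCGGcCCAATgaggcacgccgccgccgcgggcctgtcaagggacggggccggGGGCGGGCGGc
Of these 8 promoters, Ubtf held 5 GC boxes, Mxd1 held 6 GC boxes and 4 CCAAT boxes, and Tsga10 and Cntn2 held neither motif. For Ubtf the annotated start with the most GC boxes is printed, and its other starts at the same region held 2, 2 and 4. Another Tsga10 start at its region also held neither motif. For counts over all promoters the window ran from 250 bases before to 50 bases after the start. A GC box occurred in it in 64.5% of the 3295 promoters on the 4 chromosomes that overlap a region, in 65.2% of the 8695 such promoters on the other autosomes, and in 35.9% of all 32619 promoters of the reference table. A CCAAT box occurred in 37.0%, 38.5% and 37.6% of the same sets. A promoter overlapped a region for 44.3% of annotated starts on chromosome 11, 41.7% on chromosome 5, 38.4% on chromosome 1 and 35.1% on chromosome 6, against 37.5% on the other autosomes. 

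Chromosomes 1, 5, 6 and 11 together held 46.3 regions per Mb, against 28.8 on the other 15 autosomes. Chromosome 11 was the densest of all, with 64.8 regions per Mb, followed by chromosome 5 with 48.2. Chromosomes 6 and 1, at 39.9 and 38.3 regions per Mb, were less dense than chromosomes 17, 15 and 16, at 45.3, 43.6 and 41.9, which were not chosen. Just outside was also chromosome 2 with 34.7, and the sparsest was chromosome 14 with 12.7. Chromosomes 5 and 11 were thus denser than every autosome outside the choice, and chromosomes 1 and 6 were not.

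**Figure D1:**
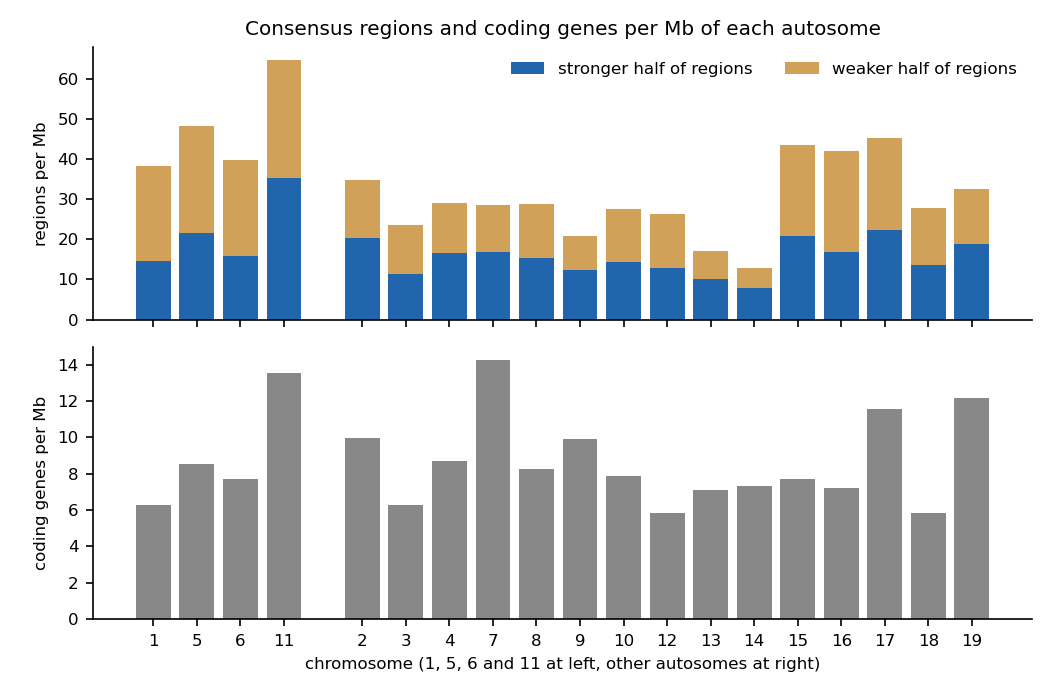
Regions per Mb of each autosome, split into regions below (weaker) and above (stronger) the median level, with the 4 chosen chromosomes first. Chromosome 11 reached 64.8 regions per Mb in all and chromosome 14 12.7, while chromosomes 15, 16 and 17 stood above chromosomes 1 and 6.

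Gene content did not go with the density in the same way on each chromosome. The 4 chromosomes held 8.60 protein-coding genes per Mb, against 8.65 on the other autosomes. Chromosome 11 is gene-rich (13.5 genes per Mb), chromosomes 5 and 6 lie near the average (8.54 and 7.70) and chromosome 1 is gene-poor (6.26). Per coding gene, chromosome 1 had 6.11 regions, chromosome 5 5.65, chromosome 6 5.18 and chromosome 11 4.78, against 3.33 over the other autosomes, whose highest was 5.83 on chromosome 16. Across the 19 autosomes, genes per Mb had a Spearman rho of 0.38 with regions per Mb, 0.64 with stronger regions per Mb and 0.06 with weaker ones; the points share the same libraries and region set, and the values are a description.

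Over the 4 chromosomes together, the excess lay mostly in weak regions away from gene ends. Regions below the median level of all autosomal regions made up 61.7% of chromosome 1, 60.4% of chromosome 6, 55.3% of chromosome 5 and 45.3% of chromosome 11, against 47.1% of the other autosomes. The 4 chromosomes held 25.6 weaker regions per Mb against 13.6 on the other autosomes, and 20.7 stronger regions per Mb against 15.2. Chromosome 11 differed, with 35.4 stronger and 29.3 weaker regions per Mb, so that stronger regions made up the larger part of its excess. Chromosome 1 had 14.7 stronger regions per Mb, fewer than the other autosomes together. Gene ends (the 1000 bp beyond and the 500 bp within each end of a coding gene) held 12.2% of the regions of the 4 chromosomes and 17.3% of those of the other autosomes. A width of 501 bp, the commonest one, was found in 61.0% and 49.9%. When only regions with a mean count of at least 50 were kept, the 4 chromosomes had 1.30 times as many regions per Mb as the other autosomes, against 1.61 times with all regions.

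The level of the regions that overlap a promoter gave a second measure beside the number of regions. Promoter regions had a median of 47.0 CPM on chromosome 11, the highest of the 18 autosomes for which promoters were analysed, and 39.4, 38.8 and 37.2 CPM on chromosomes 1, 6 and 5. The 4 chromosomes together had a median of 40.3 CPM, against 31.9 CPM on the other autosomes. Chromosomes 16, 17 and 15 again lay in the same range, at 42.3, 40.9 and 39.5 CPM, and chromosome 14 was lowest at 21.9 CPM. Summed over all its regions, chromosome 11 held 1004 CPM per Mb, chromosome 5 555, chromosome 6 414 and chromosome 1 394, against 362 on the other autosomes. Only chromosome 17, at 607, came between chromosomes 11 and 5. Chromosomes 15, 2, 19 and 16, at 529, 485, 452 and 442, stood above chromosomes 6 and 1, and chromosome 7, at 402, above chromosome 1.

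Along the chromosomes, both density and promoter level changed in steps on chromosomes 5 and 11. The first 50 Mb of chromosome 5 held 74.6 regions per Mb and the rest 32.8. The 183 promoter regions of that first stretch had a median level of 61.4 CPM, against 32.7 CPM for the 494 of the rest. In 5 Mb windows with at least 10 promoter regions, the medians ran from 50.3 to 70.0 CPM in the 6 windows of the first stretch and from 28.4 to 38.6 CPM in the 17 windows after it, so the 2 sets did not overlap. The boundaries were placed after the values were seen, and the difference is a description with no test.

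Every library showed the step on chromosome 5. The median promoter level in the first 50 Mb was 64.0, 71.5 and 48.4 CPM in the Smndc1 shRNA libraries, 70.8, 58.2 and 47.6 CPM in the Atrx shRNA libraries and 70.3, 70.4 and 49.5 CPM in the empty vector libraries. In the rest of the chromosome it was 33.1, 37.8 and 25.5 CPM with Smndc1 shRNA, 39.7, 32.5 and 27.1 CPM with Atrx shRNA and 36.0, 36.4 and 25.9 CPM with empty vector. Replicate 3 was the lowest of its group in both stretches, and the groups overlapped in both. The step ran against gene density: with the boundary at 55 Mb, where the change in regions per window is greatest, the first stretch held 6.55 coding genes per Mb and the second 9.09. Weaker regions showed the larger part of it, with 45.1 per Mb before that boundary and 14.8 after.

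Chromosome 11 had 3 stretches. Its first 35 Mb held 69.7 regions per Mb with a median promoter level of 59.7 CPM, the stretch from 35 to 85 Mb held 49.3 regions per Mb at 35.6 CPM, and the stretch beyond 85 Mb held 69.7 regions per Mb at 59.6 CPM. Window medians ran from 44.6 to 76.5 CPM in the first stretch, from 25.9 to 40.6 CPM in the middle and from 46.9 to 64.6 CPM in the last, so the middle overlapped neither of the others. The stretches differed in other ways too: beyond 85 Mb 28.1% of the regions were weaker ones and coding genes stood at 17.1 per Mb, while in the first 35 Mb 60.6% were weaker ones and genes stood at 5.89 per Mb, and in the middle stretch 49.6% and 14.4 per Mb.

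In the middle stretch of chromosome 11 the median promoter level was 36.0, 43.0 and 31.6 CPM with Smndc1 shRNA, 40.8, 34.9 and 28.8 CPM with Atrx shRNA and 37.2, 38.2 and 29.0 CPM with empty vector. In the last stretch it was 59.5, 70.5 and 51.7 CPM with Smndc1 shRNA, 69.6, 59.6 and 50.5 CPM with Atrx shRNA and 61.4, 64.7 and 48.3 CPM with empty vector. The last stretch was higher than the middle one in all 9 libraries, and the groups overlapped in both stretches.

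Chromosomes 1 and 6 showed no such step in promoter level. Window medians on chromosome 1 ran from 30.2 to 69.6 CPM and on chromosome 6 from 25.1 to 54.4 CPM, with high and low windows mixed along the length. Over 245 windows of 14 other autosomes the medians ran from 11.2 to 73.9 CPM, with quartiles of 27.0, 31.6 and 38.0 CPM. Steps of the same size were not limited to chromosomes 5 and 11: divided at 145 Mb, chromosome 2 had a promoter median of 53.3 CPM in its last part and 29.9 CPM before it, and held the highest window of the other autosomes.

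**Figure D2:**
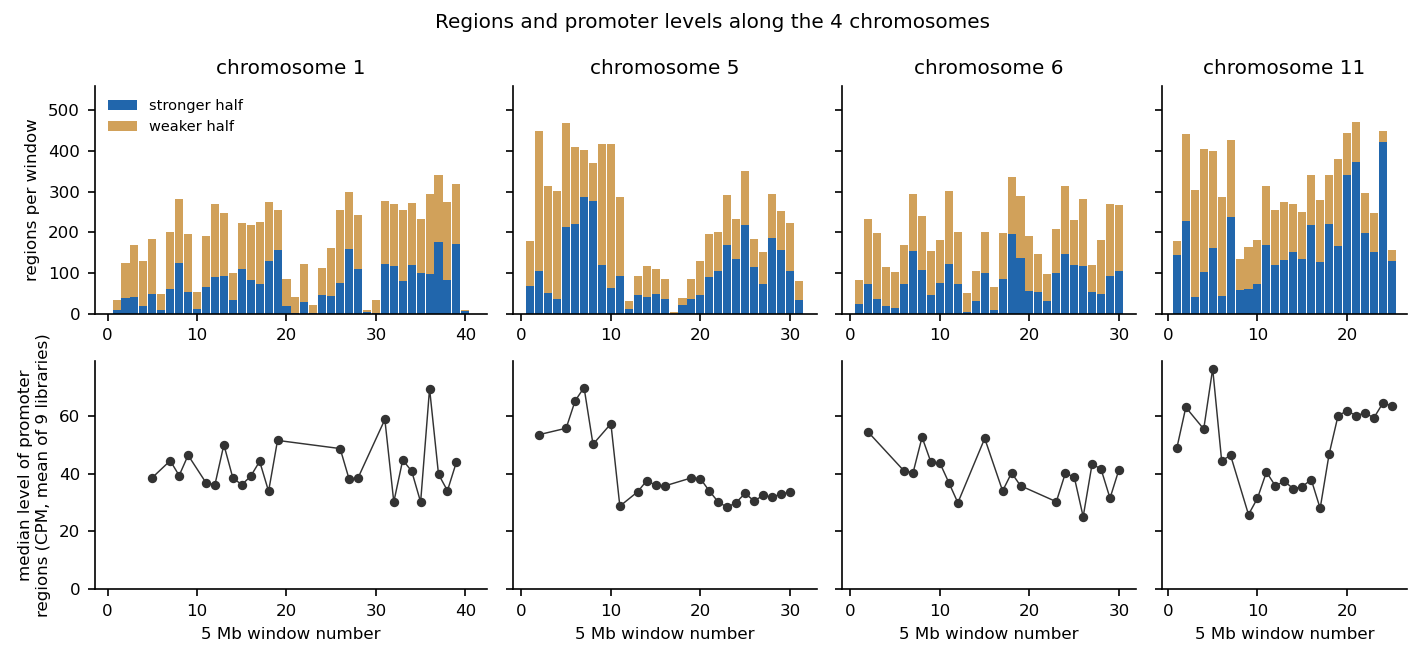
Number of regions in each 5 Mb window (upper row, stronger and weaker regions stacked) and median level of promoter regions in windows with at least 10 of them (lower row, CPM, mean of 9 libraries) along chromosomes 1, 5, 6 and 11. On chromosome 5 the promoter level lies at 50.3 to 70.0 CPM in the first 10 windows and at 28.4 to 38.6 CPM after them, and on chromosome 11 it is low in windows 8 to 17.

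The densest windows lay inside the high stretches. Window 5 of chromosome 5, from 20 to 25 Mb, held 469 regions and 51 coding genes. Window 21 of chromosome 11 held 471 regions and 149 genes, and window 24 held 449 regions of which 27 were weaker ones. The densest window of chromosome 1 held 340 regions and that of chromosome 6 held 336. The emptiest windows were window 17 of chromosome 5 with 5 regions and window 29 of chromosome 1 with 9.

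The strongest regions, taken as the top 3 of each chromosome by mean level, lay at gene ends or in gene bodies. On chromosome 11 they were at Ubtf (231.3 CPM), at Mtmr4 (211.1 CPM), a lipid phosphatase, and at Msl1 (198.2 CPM), a subunit of a histone acetyltransferase complex. On chromosome 5 all 3 lay in the first 50 Mb, at Tacc3 and Tmem129 (220.6 CPM), Kmt2c (198.5 CPM), a histone methyltransferase, and Mxd4 (187.8 CPM), a Max partner. Chromosome 6 had Cdca3 and Usp5 (178.7 CPM), Rmnd5a (123.4 CPM) and Brpf1 and Cpne9 (114.5 CPM). Chromosome 1 had Tsga10 (149.7 CPM), Dcaf6 and Mpc2 (142.5 CPM), where Mpc2 encodes a mitochondrial pyruvate carrier subunit, and Pcmtd1 (128.8 CPM). All 3 regions of chromosome 11 and all 3 of chromosome 5 were stronger than any region of chromosomes 1 and 6.

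Weak regions stood higher in replicate 3 than in replicates 1 and 2 of the same group, and more so on the 4 chromosomes than on the other autosomes together. The mean difference in log2 CPM over the weaker regions of the 4 chromosomes was 0.36 in the Smndc1 shRNA group, 0.68 in the Atrx shRNA group and 0.67 in the empty vector group, against 0.34, 0.55 and 0.51 on the other autosomes. Chromosome 11 had 0.38, 0.74 and 0.79, and chromosome 14 had 0.17, 0.19 and 0.10. Chromosomes 15 (0.341, 0.661 and 0.613), 16 (0.333, 0.692 and 0.587) and 17 (0.361, 0.656 and 0.618) lay close to the 4, whose lowest values were 0.335, 0.649 and 0.619. Chromosome 16 was below these in the Smndc1 shRNA and empty vector groups, and chromosomes 15 and 17 in the empty vector group. In the Smndc1 shRNA group the shift did not set the 4 chromosomes apart. Chromosomes 7, 19 and 8 (0.473, 0.403 and 0.389) stood above all of them there. In the stronger regions the difference was above 0 in all 3 groups on chromosome 11 (0.09, 0.05 and 0.08). Every other autosome was below 0 in the Atrx shRNA and empty vector groups, with -0.042 and -0.043 on chromosome 2 and -0.041 and -0.057 on chromosome 5 as the nearest. With weak regions taken as the lowest 20% in place of the lower 50%, the excess of the 4 chromosomes over the other autosomes, averaged over the groups, was 0.038 in place of 0.105, and it was -0.067 in the Smndc1 shRNA group in place of 0.015. Because the chromosomes were chosen by this shift, it is given without a test.

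The share of a library's autosomal counts that fell on chromosome 11 was higher in each Smndc1 shRNA library than in the empty vector library of the same rank, but the groups overlapped. It was 12.2%, 12.3% and 13.0% in the Smndc1 shRNA libraries, 11.8%, 11.9% and 12.6% in the Atrx shRNA libraries and 11.4%, 11.6% and 12.4% in the empty vector libraries. The highest value of every group was replicate 3, the low-contrast library. The means were 12.5 ± 0.446% with Smndc1 shRNA and 11.8 ± 0.520% with empty vector (SD, n = 3 each), a difference of 0.746 points (exact permutation test, two-sided, p = 0.3, and 0.8 adjusted over 8 comparisons of 4 chromosomes). With Atrx shRNA the mean was 12.1 ± 0.408%, 0.347 points above empty vector (exact permutation p = 0.4, adjusted 0.8). With 3 libraries against 3 the smallest p this test can give is 0.1.

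The other 3 chromosomes differed by less. Chromosome 5 took 8.45%, 8.27% and 8.61% in the Smndc1 shRNA libraries, 8.11%, 8.38% and 8.71% in the Atrx shRNA libraries and 8.18%, 8.20% and 8.55% in the empty vector libraries. Chromosome 1 lay between 7.48% and 7.92% and chromosome 6 between 5.96% and 6.32% over all 9 libraries. The differences from empty vector lay between -0.10 and 0.13 points, with exact permutation p of at least 0.4. For the 4 chromosomes together the share was 34.7 ± 0.769% in Smndc1 shRNA cells, 34.4 ± 1.03% in Atrx shRNA cells and 34.0 ± 0.875% in empty vector cells (SD, n = 3 each), with exact permutation p of 0.3 and 0.6 for the 2 shRNAs. Without replicate 3 of Atrx shRNA the Atrx shRNA mean fell to 0.103 points below that of empty vector.

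**Figure D3:**
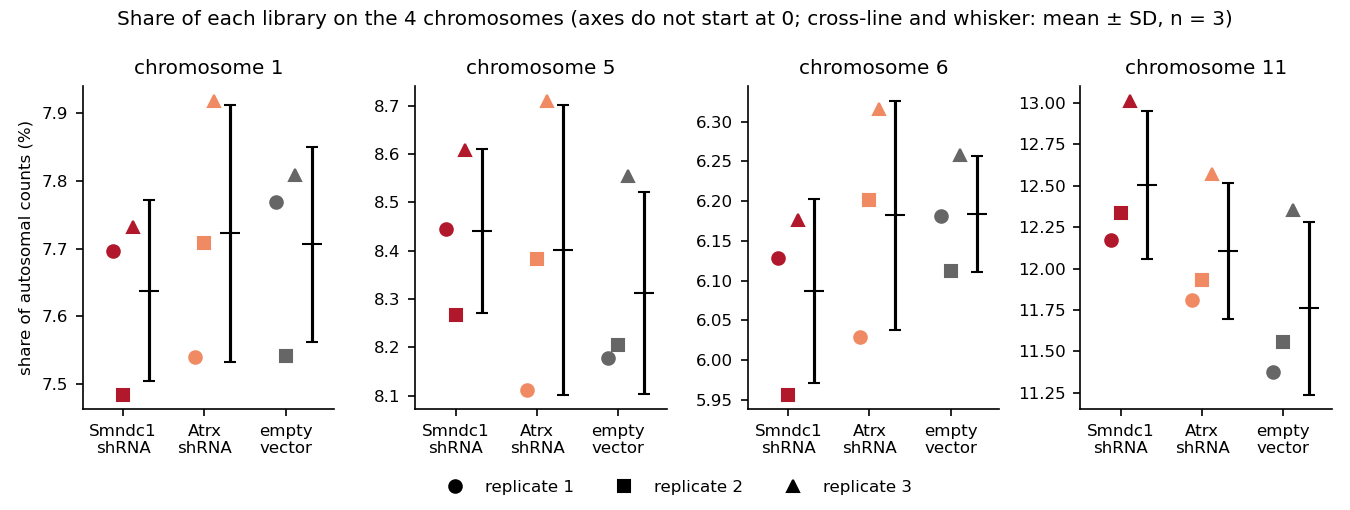
Share of autosomal region counts on each of the 4 chromosomes (percent, axes not from 0) in every library, by group, with mean and SD of 3. Replicate 3 is the highest of its group in all 4 panels; on chromosome 11 the Smndc1 shRNA libraries stand at 12.2% to 13.0% and the empty vector libraries at 11.4% to 12.4%.

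Whole chromosomes and windows were tested in a count model (edgeR quasi-likelihood F test, Benjamini-Hochberg adjusted), once with TMM factors and once with offsets that follow each library's trend with mean level and so even out the contrast (called trended offsets). Of 20 chromosome sums, 0 (0%) passed an adjusted p of 0.05 in either comparison with empty vector under either scaling, and 0 passed without adjustment. The log2 difference of chromosome 11 with Smndc1 shRNA with TMM factors was 0.06 ± 0.12 (SE, adjusted p = 0.986) and that with trended offsets 0.09 ± 0.07 (adjusted p = 0.850), the highest of the 20 both times. With Atrx shRNA it was 0.04 ± 0.12 and 0.03 ± 0.07. Of the 528 windows, 0 (0%) passed either. Without adjustment, 0 of the 126 windows on the 4 chromosomes passed 0.05 with Smndc1 shRNA and 1 with Atrx shRNA with TMM factors, and 16 and 6 with trended offsets. Over all 528 windows the unadjusted counts were 1 and 1 with TMM factors, and 34 and 11 with trended offsets.

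The direction along chromosome 11 was the same almost throughout. With Smndc1 shRNA 24 of its 25 windows were above 0 under both scalings, with a median log2 difference of 0.06 with TMM factors and 0.09 with trended offsets. On the other autosomes 54 of 373 windows (14.5%) were above 0 with TMM factors and 113 (30.3%) with trended offsets. Chromosome 6 had 3 of 30 windows above 0 with TMM factors, chromosome 1 8 of 40 and chromosome 5 14 of 31. With Atrx shRNA 22 of 25 windows of chromosome 11 were above 0, with a median of 0.03 under both scalings, against 133 of 373 (35.7%) on the other autosomes with TMM factors. Both comparisons share the empty vector libraries, and windows of 1 chromosome are not independent of each other.

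Windows named for the lowest p of each chromosome were small in size. With Smndc1 shRNA and trended offsets they were window 12 of chromosome 11 (55 to 60 Mb, log2 difference 0.12 ± 0.03, adjusted p = 0.703), window 29 of chromosome 6 (-0.10 ± 0.03), window 5 of chromosome 1 (-0.16 ± 0.06) and window 24 of chromosome 5 (0.09 ± 0.04). The 3 stretches of chromosome 11 shared the direction: with trended offsets 7 of 7, 9 of 10 and 8 of 8 windows were above 0, with medians of 0.07, 0.09 and 0.09. The 2 stretches of chromosome 5, which differ most in promoter level, had medians of 0.01 and -0.01. Corrected for contrast, chromosome 6 was the only one of the 4 whose medians did not overlap between groups, at -0.0085, -0.026 and -0.0058 with Smndc1 shRNA and 0.0064, -0.0016 and 0.013 with empty vector (log2, relative to the autosomes). That difference was -0.019 on the log2 scale (exact permutation p = 0.1, the smallest possible, not adjusted). With TMM factors it was 0.0053, of the other sign, with overlapping groups (exact permutation p = 1).

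Single regions were called where the adjusted p over all 80345 tested regions was under 0.05; of the regions on the 4 chromosomes 27934 were tested and 116 fell below the count filter. With Smndc1 shRNA and TMM factors, 6 of them rose and 32 fell, 0.136% of those tested, against a background of 0.156% of all tested regions (0.0199% higher and 0.136% lower). Of the higher regions most were on chromosome 11, with 5 higher and 1 lower, while chromosome 1 had 0 higher and 10 lower, chromosome 5 1 and 9, and chromosome 6 0 and 12. The count depended on single libraries: it was 1 without replicate 1 of empty vector and 222 without its replicate 3, the low-contrast library. With trended offsets 137 rose and 181 fell (92 calls in all without replicate 1 of empty vector and 477 without its replicate 3), against a background of 1.12% called, 0.409% higher and 0.713% lower.

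With trended offsets chromosome 11 had 81 regions called higher and 33 called lower with Smndc1 shRNA. It held 24.6% of all higher calls and 5.76% of all lower calls, with 9.56% of the tested regions. The 1.05% of its tested regions called higher was the largest share of the 20 chromosomes, followed by 0.688% on chromosome 15, where 30 rose and 21 fell. On chromosomes 1, 5 and 6, calls were mostly lower: 17 against 48, 24 against 44 and 15 against 56. The number of higher calls on chromosome 11 was 19 without replicate 2 of empty vector and 200 without its replicate 3. Its median log2 fold change over all tested regions was 0.13 with TMM factors and 0.12 with trended offsets, against 0.02 and 0.01 over all tested regions.

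The calls on chromosome 11 were spread over its length and over kinds of place. Of the higher calls 16 lay at gene ends, 36 in gene bodies and 29 between genes, with 3, 19 and 11 lower calls. The stretch beyond 85 Mb had 44 higher calls (1.58% of its tested regions), the middle stretch 23 (0.938%) and the first 14 (0.574%). The last stretch also had the lowest share of weaker regions of the 3, and weaker regions made up 20 of the 318 calls on the 4 chromosomes; the part of region strength in these shares was not tested.

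With Atrx shRNA, 0 regions of the whole table were called with TMM factors in edgeR, a background of 0%, and 0 in DESeq2's Wald test. Of the 27934 regions tested on the 4 chromosomes, 1639 passed an unadjusted p of 0.05 in edgeR, 1058 higher and 581 lower. The share of all tested regions at that unadjusted cut is not given here, so this count has no background and is not read as a change. With trended offsets 59 rose and 17 fell, against a background of 0.256% called, 0.185% higher and 0.0709% lower. Chromosome 11 held 34 of the higher and 6 of the lower calls, chromosome 5 11 and 6, chromosome 1 9 and 2, and chromosome 6 5 and 3. Its share of regions called higher, 0.443%, was close to the 0.455% of chromosome 13 and above the 0.362% of chromosome 17. Without replicate 1 of empty vector, 4 calls were left on the 4 chromosomes, 3 of them higher on chromosome 11.

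Between the shRNAs, 7 regions on the 4 chromosomes were higher and 6 lower with Smndc1 shRNA than with Atrx shRNA with TMM factors, against a background of 0.0759% called, 0.0224% higher and 0.0535% lower. With trended offsets the counts were 76 and 74 against 0.579% called (0.197% higher and 0.382% lower), and chromosome 11 had 36 higher and 18 lower. No region was called with TMM factors when replicate 2 of Atrx shRNA was left out. The median log2 fold change of chromosome 11 between the shRNAs was 0.04 with TMM factors and 0.05 with trended offsets.

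**Figure D4:**
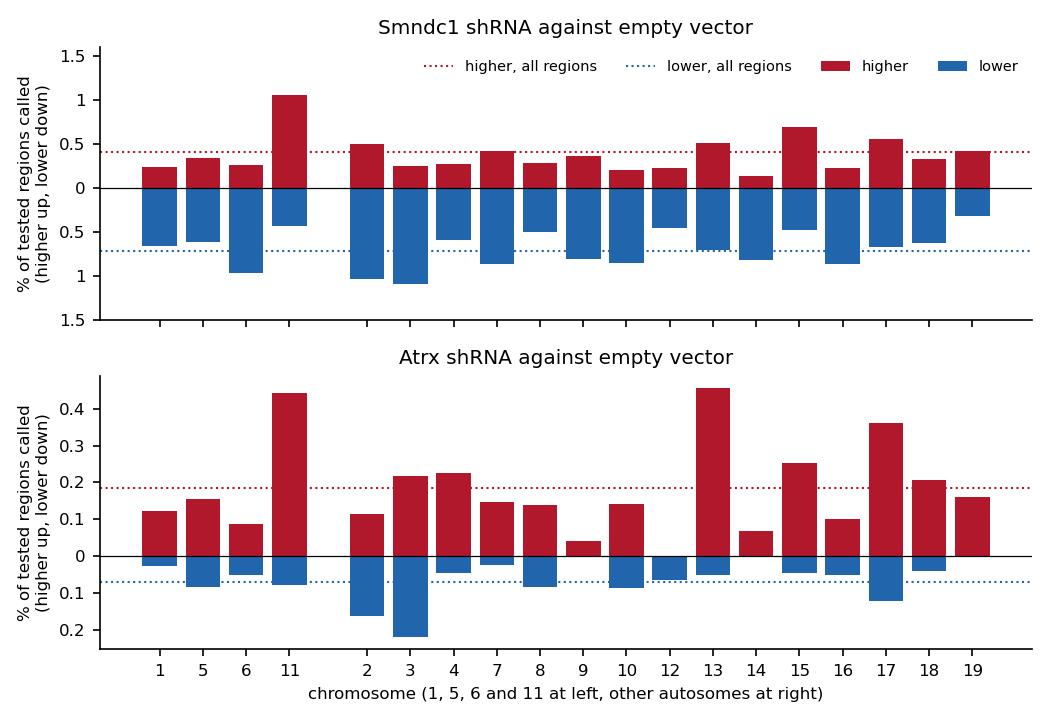
Percent of the tested regions of each chromosome called higher and called lower with trended offsets, for each shRNA against empty vector, with chromosomes 1, 5, 6 and 11 first. Chromosome 11 shows 1.05% higher and 0.430% lower with Smndc1 shRNA, and 0.443% and 0.0781% with Atrx shRNA.

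The clearest single region lay inside Dbnl, an actin-binding adaptor gene on chromosome 11 (chr11:5792461-5792961). It stood at 25.4, 21.5 and 28.1 CPM with Smndc1 shRNA, 9.96, 6.87 and 8.44 CPM with Atrx shRNA and 6.22, 7.52 and 8.30 CPM with empty vector. All 3 Smndc1 shRNA libraries lay far above the other 6, which overlapped. The log2 fold change was 1.77 ± 0.24 against empty vector (SE, adjusted p = 8.87e-06) and 1.56 ± 0.24 against Atrx shRNA (adjusted p = 0.000188). It was the only one of 13 comparisons of regions named with TMM factors that remained called whichever library was left out, with an adjusted p of at most 0.00633.

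A region between genes 950 kb from Mat2b, which encodes a regulatory subunit of methionine adenosyltransferase (chr11:39728508-39729445), had 11.3, 14.7 and 11.2 CPM with Smndc1 shRNA. The Atrx shRNA libraries had 3.85, 6.30 and 8.77 CPM and the empty vector libraries 2.96, 4.15 and 2.82 CPM. Smndc1 shRNA overlapped neither group, and it was 1.89 ± 0.32 above empty vector on the log2 scale (adjusted p = 0.00195).

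A region inside Snap47, a SNARE family gene, rose with both shRNAs on chromosome 11 (chr11:59446868-59447368). It had 4.71, 9.15 and 7.95 CPM with Smndc1 shRNA, 12.2, 6.68 and 6.65 CPM with Atrx shRNA and 1.78, 1.82 and 3.44 CPM with empty vector. Every shRNA library was above every empty vector library. The fold change with Smndc1 shRNA was 1.63 ± 0.38 with TMM factors (adjusted p = 0.0389), and that with Atrx shRNA 1.93 ± 0.37 with trended offsets (adjusted p = 0.00244) but not called with TMM factors (adjusted p = 0.202).

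Rnf32, a RING finger gene on chromosome 5, held the remaining higher region of the rule (chr5:29211988-29212664), with 12.6, 11.5 and 13.5 CPM with Smndc1 shRNA and 2.52, 4.02 and 7.98 CPM with empty vector. The Atrx shRNA libraries, at 7.39, 4.39 and 11.8 CPM, overlapped both. The log2 fold change with Smndc1 shRNA was 1.38 ± 0.31 (adjusted p = 0.0321).

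The named lower regions with TMM factors lay on chromosomes 1, 5 and 6. A region inside Bcl2, the apoptosis inhibitor (chr1:106684325-106684956), had 2.06, 1.69 and 2.71 CPM with Smndc1 shRNA, 6.91, 5.35 and 4.87 CPM with Atrx shRNA and 5.78, 9.47 and 7.36 CPM with empty vector. The Smndc1 shRNA libraries lay below all 6 others, and the log2 fold change against empty vector was -1.80 ± 0.40 (adjusted p = 0.0274). The promoter region of Akap3, a kinase anchor protein of sperm, whose sequence is given above (chr6:126852792-126853379), was the only gene-end region among those named. It had 7.50, 7.97 and 4.91 CPM with Smndc1 shRNA, 12.2, 9.16 and 6.49 CPM with Atrx shRNA and 13.8, 21.4 and 14.2 CPM with empty vector. Both shRNA groups lay below empty vector without overlap, and the change with Smndc1 shRNA was -1.28 ± 0.26 (adjusted p = 0.0135).

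Inside Arl8b, a lysosomal GTPase gene (chr6:108796582-108797169), the level was 4.85, 4.41 and 3.55 CPM with Smndc1 shRNA, 9.31, 13.0 and 7.14 CPM with Atrx shRNA and 11.8, 12.5 and 13.3 CPM with empty vector. The change with Smndc1 shRNA was -1.54 ± 0.28 (adjusted p = 0.00582), with no overlap. Inside Unc80, part of a sodium leak channel complex (chr1:66495295-66495838), it was 3.97, 2.03 and 3.38 CPM with Smndc1 shRNA, 6.91, 4.96 and 4.22 CPM with Atrx shRNA and 15.1, 12.6 and 6.11 CPM with empty vector. Inside Lias, the lipoic acid synthetase gene (chr5:65398910-65399527), it was 5.00, 5.08 and 4.06 CPM with Smndc1 shRNA, 6.10, 8.21 and 10.6 CPM with Atrx shRNA and 20.4, 12.1 and 7.67 CPM with empty vector. In both, replicate 3 of empty vector was the lowest of its group and still above every Smndc1 shRNA library. The changes with Smndc1 shRNA were -1.84 ± 0.35 (adjusted p = 0.00657) and -1.5 ± 0.30 (adjusted p = 0.00888).

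**Figure D5:**
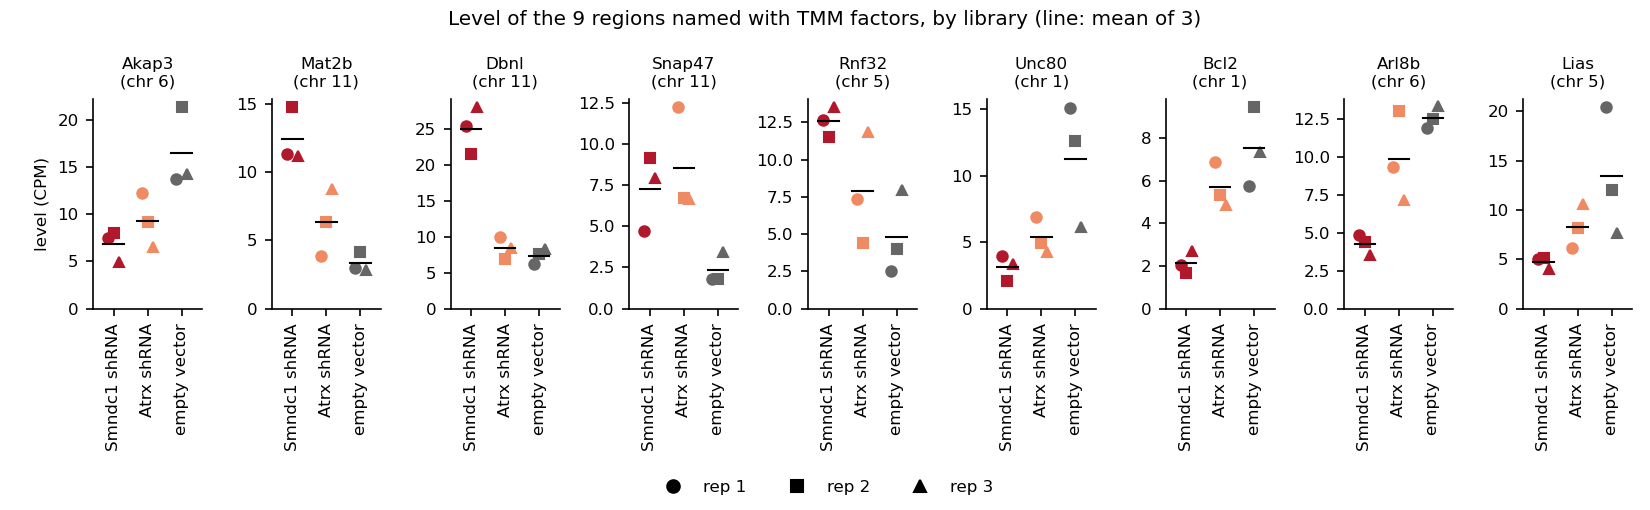
Level (CPM, linear axes from 0, each region with its own scale) of the 9 regions named with TMM factors for Smndc1 shRNA against empty vector, in every library, with the mean of 3 as a line. Dbnl, Mat2b, Snap47 and Rnf32 are higher and Akap3, Unc80, Bcl2, Arl8b and Lias lower with Smndc1 shRNA than with empty vector, with no overlap between these 2 groups.

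Gene ends named only with trended offsets included small changes at strong promoters. The region at Uba3, a subunit of the enzyme that activates NEDD8 (promoter given above), had 37.5, 32.7 and 17.1 CPM with Smndc1 shRNA and 52.0, 59.0 and 35.7 CPM with empty vector, a change of -0.70 ± 0.14 (adjusted p = 0.00147, and 0.337 with TMM factors). These levels overlapped, and replicate 3 was the lowest of both groups. The shared end of Tmem43 and the DNA repair gene Xpc fell by 0.84 ± 0.19 (adjusted p = 0.00563) and that of Trh, the thyrotropin-releasing hormone gene, by 1.02 ± 0.29 (adjusted p = 0.0439). Gene ends of the zinc finger genes Zfp239 and Zfp692, of the aminopeptidase-like gene Rnpepl1 and of the neuronal adhesion gene Cntn2 rose by 1.62, 1.32, 1.24 and 1.17.

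Elsewhere, trended offsets added higher regions 89.9 kb from Zfp637 (2.4 ± 0.63), inside Tmem131 (2.07 ± 0.58) and 156 kb from Qdpr (1.91 ± 0.48). Lower regions were added inside Bmpr2 (-2.58 ± 0.73), a receptor of bone morphogenetic proteins, and Dync1i1 (-2.2 ± 0.55), a dynein subunit. All 5 were weak, with at most 7.44 CPM in any library.

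With Atrx shRNA, the named gene ends fell into weak regions that rose and strong promoters that fell a little. The end of Zfp239 had 6.58, 8.78 and 6.33 CPM with Atrx shRNA, against 1.18, 2.2 and 2.97 CPM with empty vector (1.77 ± 0.39 with trended offsets, adjusted p = 0.0119). The ends of Zfp692, Dcaf7 and Gm21814 rose by 1.39, 1.32 and 1.14. The promoter of Mxd1, a transcriptional repressor that pairs with Max (sequence above), had 82.2, 75.8 and 74.2 CPM with Atrx shRNA and 111, 126 and 81.4 CPM with empty vector. Replicate 3 of empty vector lay just below the highest Atrx shRNA library, and the change was -0.46 ± 0.11 (adjusted p = 0.0264 with trended offsets, 0.917 with TMM factors).

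Promoters of Aspm, a spindle pole protein, Slc22a5, a carnitine transporter, and Jup, the junction protein plakoglobin, fell with Atrx shRNA by 0.58, 0.48 and 0.45 with trended offsets (adjusted p of 0.0273, 0.0442 and 0.0419). Regions 15.9 kb from Kif26b and 33.5 kb from Crhr1, the receptor of corticotropin-releasing hormone, fell by 0.80 ± 0.17 and 0.77 ± 0.15. Regions near Atf7ip and Ube3c fell by 0.95 and 0.88, and regions inside Ddx51, Gpn3 and Ing5 rose by 1.39, 1.37 and 1.36. None of these was called with TMM factors.

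Set against Atrx shRNA, a region inside Fam83g and Slc5a10 on chromosome 11 was higher with Smndc1 shRNA (10.1, 6.44 and 13.7 CPM against 2.73, 3.25 and 4.38 CPM, log2 1.54 ± 0.35, adjusted p = 0.0467). A region 7.78 kb from Hsfy2 on chromosome 1 was lower (3.53, 2.54 and 4.4 CPM against 14.6, 9.16 and 8.12 CPM, -1.60 ± 0.32, adjusted p = 0.0287). A region 1.72 kb from A630073D07Rik was lower too (-1.19 ± 0.25, adjusted p = 0.0334). With trended offsets the end of Vgf, a granule peptide precursor, was lower by 0.53 ± 0.13 (adjusted p = 0.0197) and that of Fbxo47 by 0.57 ± 0.15. The ends of Atox1, a copper chaperone gene, and Tmem211 were higher by 0.94 ± 0.25 and 0.84 ± 0.17.

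Genes of islet biology on the 4 chromosomes were read through lists, each described by its regions in the gene body or within 10 kb. Over all tested regions, 1.12% were called with Smndc1 shRNA and 0.256% with Atrx shRNA with trended offsets, and 0.156% and 0% with TMM factors. The 10 islet transcription factor genes had 32 regions, of which 4 rose and 0 fell with Smndc1 shRNA with trended offsets and 0 passed with TMM factors in edgeR (5 at an unadjusted p of 0.05) or in DESeq2; the median log2 fold change was 0.26, against 0.01 over all regions (trended offsets). Of the 4, 3 lie at Prox1, a homeobox factor of endocrine cells. A region in its body (chr1:190169001-190169680) had 39.0, 45.4 and 36.2 CPM with Smndc1 shRNA, 35.2, 31.7 and 24.7 CPM with Atrx shRNA and 32.1, 23.5 and 16.1 CPM with empty vector. The Smndc1 shRNA libraries were above all of empty vector, and the change of 0.82 ± 0.15 (adjusted p = 0.000241 with trended offsets, 0.268 with TMM factors) remained called with trended offsets whichever library was left out.

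The other Prox1 regions, at the gene's end and 3.38 kb away, rose by 0.43 ± 0.12 and 0.45 ± 0.12 with overlapping raw levels. A region inside Nkx6-1, a beta cell transcription factor (chr5:101662678-101663669), had 28.5, 34.6 and 24.4 CPM with Smndc1 shRNA, 35.5, 34.4 and 22.9 CPM with Atrx shRNA and 17.9, 21.5 and 13.9 CPM with empty vector. It rose by 0.77 ± 0.17 (adjusted p = 0.00299) with Smndc1 shRNA and by 0.83 ± 0.17 (adjusted p = 0.00480) with Atrx shRNA with trended offsets. The strongest Nkx6-1 region, at its end, did not pass (-0.19 ± 0.13). The single region at Pdx1, another beta cell factor, did not pass either (-0.46 ± 0.22, adjusted p = 0.38).

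Of the hormone genes, the region at Iapp, the amylin gene, had a difference of -0.05 ± 0.14 with Smndc1 shRNA and did not pass. Among 150 regions at 11 granule and exocytosis genes, 2 rose with trended offsets (Snap47 and Cacna1c) and 3 fell, 2 of these inside Cacna1e and 1 inside Cacna2d1. Cacna1c, Cacna1e and Cacna2d1 encode subunits of voltage-gated calcium channels. With TMM factors 1 rose (Snap47) and 2 fell (Cacna2d1 and 1 of Cacna1e), while Cacna1c and the other Cacna1e region had an adjusted p of 0.636 and 0.296. The Cacna2d1 region (chr5:16297422-16298073) had 10.7, 12 and 10.7 CPM with Smndc1 shRNA, 18.5, 18.5 and 18.8 CPM with Atrx shRNA and 21.8, 24.0 and 18.9 CPM with empty vector. Smndc1 shRNA lay below all others, and the change also passed in edgeR with TMM factors (-0.95 ± 0.23, adjusted p = 0.0461). In DESeq2's Wald test 0 of the 150 regions were called with Smndc1 shRNA. The regions at Cacna2d1, Cacna1e and Snap47 were thus not called there.

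Of 45 regions at 10 p53 and arrest genes, 2 rose (Gadd45a and Cdkn1b) and 2 fell (Xpc and Bcl2) with Smndc1 shRNA with trended offsets; with TMM factors 0 rose and 1 fell (Bcl2). A region 1.25 kb from Cdkn1b, which encodes the cell cycle inhibitor p27, had 49.7, 72.0 and 39.9 CPM with Smndc1 shRNA, 66.6, 57.5 and 43.7 CPM with Atrx shRNA and 39.2, 40.7 and 25.8 CPM with empty vector. Replicate 3 of Smndc1 shRNA lay among the empty vector libraries. The change was 0.65 ± 0.13 (adjusted p = 0.00115) with Smndc1 shRNA and 0.67 ± 0.13 (adjusted p = 0.00273) with Atrx shRNA with trended offsets, and 0.5 and 0.759 were the adjusted p with TMM factors. The strongest region at Trp53 itself had a difference of 0.08 ± 0.11, and that at Mdm4 0.17 ± 0.17.

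Of the 28 regions at 6 splicing genes, 1 rose with Smndc1 shRNA with trended offsets, inside Srsf1 on chromosome 11 (0.53 ± 0.14, adjusted p = 0.0240), and that region also rose with Atrx shRNA (0.66 ± 0.14, adjusted p = 0.00653). With TMM factors it was called in neither comparison (adjusted p of 0.662 and 0.771), and 0 splicing or chromatin gene regions were called with either shRNA. With trended offsets 1 of 65 regions at 13 chromatin genes rose with Smndc1 shRNA, inside Smarcd3, a subunit of BAF remodelers (0.96 ± 0.27, adjusted p = 0.0402, and 0.216 with TMM factors). A region shared by the helicase gene Ddx42 and Smarcd2, another BAF subunit, rose with Atrx shRNA (0.84 ± 0.21, adjusted p = 0.0444, and 0.449 with TMM factors). The 12 regions at 14 genes of the Hoxa and Hoxb clusters had 0 calls in edgeR with either shRNA and either scaling and 0 in DESeq2, and 1 of them passed an unadjusted p of 0.05 with Smndc1 shRNA. The strongest region of each of these genes had at most 12.3 CPM. The 32 regions at 20 keratin genes had 0 calls in both tools too, and 4 with Smndc1 shRNA and 5 with Atrx shRNA passed an unadjusted p of 0.05 with trended offsets. Their medians with Smndc1 shRNA and trended offsets were 0.03 and 0.19 (log2), against 0.12 for all regions of chromosome 11, where the keratin and Hoxb genes lie. Of the 9 regions at Prox1, 3 were thus called, while most listed genes had none; the lists were drawn up with earlier results of these data known, and their counts and medians are descriptions.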

How the data were processed

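ATAC-seq was done on 9 alphaTC1 libraries in 3 groups of 3. The authors deposited 1 table of unscaled, whole-number counts over 80827 consensus regions, and a list of the regions' positions on mm10 (GRCm38). Reads were 75 bp paired-end, per the labels' protocols. The tools named are MACS2 2.2.7.1, Bowtie2 2.4.4, bedtools 2.27.1, deepTools 3.5.1 and SAMtools, per the submitters' processing notes. What was counted (reads, fragments or insertions) and how regions were merged is not given in the sources used here. Each column matched a labelled sample, with 0 unmatched.

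Counts were tested with edgeR 4.0.16 (quasi-likelihood F test, TMM factors, filterByExpr with a minimum count of 10, robust dispersion) in R 4.3.3, with all 9 libraries in 1 fit and Benjamini-Hochberg adjustment over 80345 regions. Trended offsets were a loess curve (span 0.3, limma 3.58.1) of each library against mean log2 count. Chromosome sums and 5 Mb windows with at least 5 regions were fitted the same way, with the library factors of the region table. Shares were compared with exact permutation tests written in Python, and Spearman correlations were computed with scipy 1.17.1. Genes came from RefSeq gene bounds, which give no strand. DESeq2 1.42.0 was an alternative. The scripts were tested on simulated data. Tables used Python 3.11.15, pandas 2.3.3 and numpy 2.4.6, and figures matplotlib 3.10.9.

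Named regions have an adjusted p under 0.05, a mean log2 CPM of at least 1 and no overlap of the 2 groups on the scale of the fit, and of these the 4 at gene ends and the 4 elsewhere that changed most in each direction are named (2 and 2 between the shRNAs). Also named are the 3 strongest regions of each chromosome, its densest window and its window with the lowest p, and called regions of 8 gene lists. The chromosomes, lists and rules were chosen with earlier results of these data known. Replicates of a group differed by more than counting noise (chi-square per degree of freedom 3.13 to 6.78), so none were merged. Promoters of chromosome 18 were not analysed here. Some genes of the lists, with the calls at them, are not reported here.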

Additional observations from a re-analysis of the deposited data

How the results depend on the processing

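The higher calls of chromosome 11, and every count of called regions, moved with the scaling and with single libraries, while the direction of the shares kept with 1 exception. For Smndc1 shRNA against empty vector, 38 regions on the 4 chromosomes were called with TMM factors, 24 with DESeq2's size factors, 10 with DESeq2's Wald test, 108 with a mean count of at least 50, 318 with trended offsets, 61 with only the 6 libraries compared and 205 without replicate 3 of every group. Leaving out 1 library gave 1 (without replicate 1 of empty vector) to 222 (without its replicate 3). For Atrx shRNA the 0 calls became 2 with a mean count of at least 50, 76 with trended offsets, 6 with 6 libraries and 35 without replicate 3 of every group, and 0 to 8 (without replicate 3 of Smndc1 shRNA) with 1 library left out. Between the shRNAs 13 calls became 8 with the Wald test, 46, 150 and 84 under a mean count of 50, trended offsets and no replicate 3, and 0 to 26 with 1 library left out. With trended offsets, leaving out 1 library gave 92 to 477 calls for Smndc1 shRNA (318) and 4 to 150 for Atrx shRNA (76; 137 without replicate 3 of every group). The 81 higher calls of chromosome 11 with Smndc1 shRNA were 5 with TMM factors and 19 to 200 with 1 library left out. The 34 with Atrx shRNA were 0 with TMM factors, 58 without replicate 3 of every group and 3 to 50 with 1 library left out. Beyond the fits of all 9 libraries with TMM factors or trended offsets, these counts have no share over all tested regions beside them. They show only how the calls on these chromosomes moved.

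Replicate numbers are not said to be pairs. Correlations between same-numbered libraries of 2 groups ran from -0.05 to 0.41. Smndc1 shRNA libraries were set against those of each other group, and Atrx shRNA libraries against those of empty vector. In 5 of these 9 checks the library of the same number correlated best. Between the replicate 3 libraries they were 0.30, 0.33 and 0.41, above the highest value of 0.28 between different numbers. For replicates 1 and 2 they ran from -0.05 to 0.24. With a replicate block and TMM factors, 420, 83 and 176 regions on the 4 chromosomes were called in the 3 comparisons. Over all 80345 tested regions the calls were 1268 (1.58%), 231 (0.288%) and 614 (0.764%). With trended offsets and the block, the calls on the 4 chromosomes were 745 for Smndc1 shRNA and 268 for Atrx shRNA, with 217 and 92 higher on chromosome 11. The share of all tested regions called in this fit is not given here, so these counts have no background beside them. Of the chromosome sums, 1 of the 4, chromosome 11, was then called higher with Smndc1 shRNA (0.09 ± 0.02, adjusted p = 0.00733). Over all 20 sums 3 (15%) were called. On the 4 chromosomes 23 windows were called with Smndc1 shRNA, 14 of them higher and 12 of these on chromosome 11. Over all 528 windows 91 (17.2%) were called. Otherwise chromosome sums and windows kept 0 calls on the 4 chromosomes, also with any 1 library left out. Exact sign-flip permutation tests within replicate numbers gave p = 0.25 for the Smndc1 shRNA share differences, the smallest possible with 3 pairs.

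The share difference of the 4 chromosomes ran from 0.280 to 1.21 points with Smndc1 shRNA and, with Atrx shRNA, from -0.103 (without its replicate 3) to 0.955 points. On chromosome 11 it ran from 0.493 to 1.04 and from 0.113 to 0.642 points. The 1.61-fold density was 1.30-fold at a mean count of at least 50. Of the 13 comparisons of regions named with TMM factors, 13 were also called with trended offsets and 13 with the block, and 2 (without replicate 1 of empty vector) to 13 with 1 library left out. Of 59 named or listed with trended offsets, 9 were called with TMM factors and 5 whichever library was left out: Dbnl against Atrx shRNA, and Unc80, Prox1, Mat2b and Cdkn1b. No named region changed sign. The causes of these moves were not tested. Depth limits the weaker regions most, and 3 libraries a group limit every exact test to p of at least 0.1. Without DNA read counts of the line, copy number cannot be separated from openness.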
